A study of Mus musculus with 16 samples.

Results

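The genes of MHC class II antigen presentation were followed across sorted cells of the mouse thymus. The 10 members, Cd74, H2-Aa, H2-Ab1, H2-Eb1, H2-DMa, H2-DMb1, H2-DMb2, H2-Oa, H2-Ob and Ciita, were taken by gene symbol from the array annotation, out of 8251 genes named by a probe set with 1 symbol. No cutoff on their signals was used to take them, but the list was chosen with earlier results of these data known. Total RNA was measured on 16 Affymetrix mouse arrays in 8 groups of 2. Of the CD80-sorted groups, AIRE-ko CD80hi mTEC and AIRE-ko CD80lo mTEC were medullary thymic epithelial cells (mTEC) of Aire-knockout mice with high or low surface CD80, a costimulatory ligand of mature mTEC. WT CD80hi mTEC and WT CD80lo mTEC were the same fractions of wild-type mice. The remaining groups were not split by CD80 and were all wild type: WT mTEC, WT cTEC (cortical thymic epithelial cells), WT tDC (thymic dendritic cells) and WT tMPh (thymic macrophages). The sources used here give no knockout allele, strain, age or number of mice per sample. The labels do not say whether the samples of a group came from separate mice, so p-values measure only the spread between these samples, which may be technical.

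MHC class II molecules are pairs of an alpha and a beta chain that show peptides from the endosomal pathway to CD4 T cells. In the endoplasmic reticulum the invariant chain, encoded by Cd74, fills their groove. Endosomal cathepsins then degrade it to a short remnant, H2-DM exchanges the remnant for other peptides, and H2-DO restrains H2-DM. Ciita, the class II transactivator, binds no DNA itself and acts through factors that sit on shared promoter elements of these genes. In the thymus, cTEC use class II to select CD4 T cells positively, while mTEC and dendritic cells use it to remove self-reactive ones. Aire lets mTEC express many genes of other tissues, whose peptides can then be presented.

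The shared promoter elements are shown first because they are the feature that links these genes outside the array. From the RefSeq promoter table (GRCm38.p6), 8 promoters of 7 of the 10 members were examined. Each ran from 250 bases before to 50 bases after a transcription start. H2-Ab1 and Ciita were not matched. Cd74 was left out of the search, so whether the table holds a promoter for it was not tested. Motif counts of members below are out of these 7. A Y box (GATTGG) preceded by the core of an X2 box (TGANG) 15 to 35 bases upstream, counted from first base to first base on the strand with the Y box, was present on the gene's own strand in 5 members. In the 5 stretches below, written 5′ to 3′ on the gene's strand, capitals mark the X2 core and then the Y box:
H2-Aa (chr17:34287857-34287922, minus strand): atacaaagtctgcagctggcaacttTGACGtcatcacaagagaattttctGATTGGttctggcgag
H2-Eb1 (chr17:34305757-34305822, plus strand): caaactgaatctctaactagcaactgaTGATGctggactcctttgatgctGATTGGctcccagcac
H2-DMb1 (chr17:34153079-34153144, plus strand): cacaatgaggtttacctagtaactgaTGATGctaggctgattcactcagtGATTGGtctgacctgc
H2-DMb2 (chr17:34145108-34145173, plus strand): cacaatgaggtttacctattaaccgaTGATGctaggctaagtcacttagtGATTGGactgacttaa
H2-Ob (chr17:34238797-34238862, plus strand): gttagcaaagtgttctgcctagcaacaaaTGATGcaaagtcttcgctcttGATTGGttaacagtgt

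The Y box began 25 bases after the X2 core in H2-Aa, 23 in H2-Eb1, 24 in both H2-DMb genes and 21 in H2-Ob. H2-Oa and 1 of the 2 H2-DMa promoters held a Y box on the gene's strand without the X2 core in that window. Of all 32851 promoters in the table, 0.87% held the pair on the gene's strand and 1.61% on either strand, while a Y box alone was present in 8.71% and 16.11%. The motifs and the window were chosen after these promoters had been seen. A match is a description of the letters and not a measured binding site.

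Values are linear signals as deposited. A fold change is given on the log2(signal + 4.8) scale, first-named group minus second, with its standard error from the model after ±, and understates changes of dim genes. Calls rest on an adjusted p below 0.05 from limma over 9319 tested probe sets. All 10 members were tested: 9 exceeded the level of 17.3 used as a filter on 16 arrays and H2-Ob on 13. H2-DMb1 and H2-DMb2 are close paralogs, and a further probe set is annotated to both, so their separate signals are uncertain.

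The highest signal on an array was 8598 to 13671 on the 8 CD80-sorted arrays, 4788 to 5630 on array 2 of the 4 unfractionated groups and 2518 to 3524 on array 1 of those groups. Aire gave 1589 and 1385 in AIRE-ko CD80hi mTEC and 1829 and 1704 in WT CD80hi mTEC, and 127 and 83.0 in AIRE-ko CD80lo mTEC and 196 and 94.4 in WT CD80lo mTEC. The sources used here do not say where its probes lie relative to the deletion, so these values are no check of the genotype. Some defining markers followed the labels: the dendritic cell marker Itgax gave 1188 and 1296 in WT tDC and 23.6 to 61.8 in all mTEC groups, and the macrophage marker Adgre1 gave 507 and 1199 in WT tMPh. Others did not: the macrophage marker Itgam gave 2.5 and 2.8 in WT tMPh. The medullary markers Krt5 and Krt14 lay between 2.0 and 18.2 on all arrays. Medullary epithelial markers (8 genes measured) summed to 3994 and 5615 in WT mTEC and 135 and 320 in WT cTEC, and cortical ones (5 genes) to 3493 and 2455 in WT mTEC and 7033 and 10771 in WT cTEC. Both WT cTEC arrays also carried thymocyte markers (summed signal of 12 genes 4127 and 7787, against 422 and 452 in WT mTEC). The same 12 genes summed to 2778 and 2988 in WT tDC. Array 1 of WT tMPh carried epithelial markers (8 genes, 2415, against 395 on array 2), and thymocyte markers were at 7326 and 3100 on these arrays. In sorted bulk samples, fewer cells of a type and less RNA per cell cannot be told apart.

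**Figure D1:**
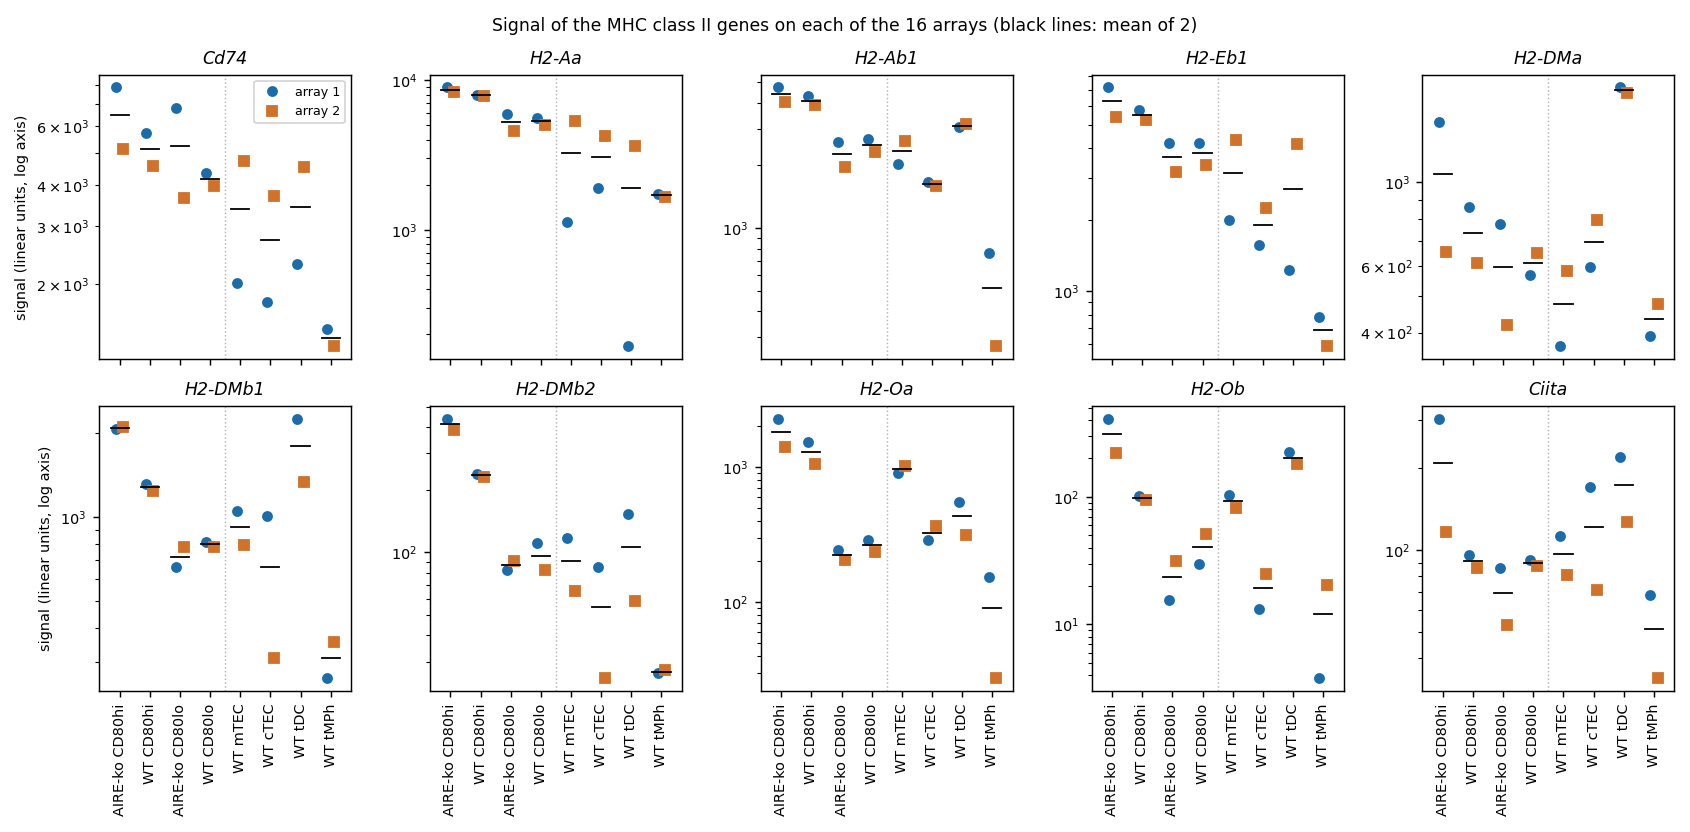
Signal of each of the 10 genes on each array (linear units on a log axis). Circles are array 1 and squares array 2 of a group, black lines the mean of the 2, and the dotted line separates CD80-sorted from unfractionated groups. AIRE-ko CD80hi mTEC had the highest mean for 9 of the 10 genes and WT tDC for H2-DMa, and WT tMPh had the lowest mean for all 10. Of those 9, only H2-Aa and H2-DMb2 had no overlap with the next group. The tMPh arrays were below the next group without overlap only for Cd74, H2-Ab1, H2-Eb1 and H2-Oa. Across the dotted line the cell type and the set of arrays cannot be told apart.

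CD80hi mTEC were set against CD80lo mTEC to ask how class II genes change with mTEC maturation. The genes of H2-DO and H2-DM carried the calls, and the classical chains did not pass the test although their CD80hi and CD80lo arrays did not overlap in either genotype. In AIRE-ko mTEC 4 members rose, H2-DMb1, H2-DMb2, H2-Oa and H2-Ob, and 6 did not pass, where 12.8% of all tested probe sets were called. In WT mTEC H2-Oa rose and 9 did not pass, where 12.7% of all were called. All 10 fold changes were positive in both genotypes, as were 48.2% and 47.7% over all probe sets in AIRE-ko and WT mTEC. The median over the members was 1.18 in AIRE-ko and 0.63 in WT mTEC, beside -0.03 and -0.035 over all probe sets.

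The classical chains are the presenting molecules themselves. H2-Aa, the alpha chain of the A molecule, gave 8959 and 8328 in AIRE-ko CD80hi and 5934 and 4555 in AIRE-ko CD80lo mTEC. In wild type it gave 7977 and 7866 in CD80hi and 5611 and 5034 in CD80lo mTEC. In each genotype both CD80hi arrays lay above both CD80lo arrays, with fold changes of 0.73 ± 0.996 and 0.57 ± 0.996 (adjusted p = 0.748 and 0.832).

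H2-Ab1, its beta chain, gave 4725 and 4020 in AIRE-ko CD80hi and 2586 and 1974 in AIRE-ko CD80lo mTEC. The wild-type values were 4277 and 3899 in CD80hi and 2677 and 2326 in CD80lo mTEC. The groups again did not overlap, and the fold changes were 0.95 ± 0.39 (adjusted p = 0.141) in AIRE-ko and 0.71 ± 0.39 (adjusted p = 0.301) in WT mTEC.

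H2-Eb1, the beta chain of the E molecule, gave 7166 and 5393 in AIRE-ko CD80hi and 4175 and 3156 in AIRE-ko CD80lo mTEC. In WT it gave 5755 and 5244 in CD80hi and 4201 and 3388 in CD80lo mTEC. Neither genotype had overlapping arrays, and neither fold change passed (0.78 ± 0.49 in AIRE-ko and 0.54 ± 0.49 in WT). The gene of its alpha chain, H2-Ea, which some mouse strains do not express, lay between 0.6 and 9.7 on all 16 arrays, below the filter level.

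The spread behind these tests is pooled over all 16 arrays and is wide for H2-Aa, whose unfractionated arrays differ by up to 21.9 times within a group. With the 8 CD80-sorted arrays fitted alone, a choice made after seeing the data, H2-Aa and H2-Ab1 also passed in AIRE-ko mTEC (adjusted p = 0.0376 and 0.0188) and H2-DMb2 in WT mTEC (adjusted p = 0.0143), where 14.9% and 13.9% of all tested probe sets were called. With only the WT CD80hi and CD80lo arrays in the fit, 7 members and 26.4% of all tested probe sets passed.

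Cd74, the invariant chain, gave 7869 and 5134 in AIRE-ko CD80hi and 6835 and 3637 in AIRE-ko CD80lo mTEC. It gave 5738 and 4557 in WT CD80hi and 4345 and 3957 in WT CD80lo mTEC. The knockout arrays overlapped and the wild-type arrays did not, with fold changes of 0.35 ± 0.48 and 0.30 ± 0.48 (adjusted p = 0.752 and 0.813).

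H2-DM exchanges the peptides. Its alpha chain gene H2-DMa gave 1444 and 656 in AIRE-ko CD80hi and 776 and 418 in AIRE-ko CD80lo mTEC. It gave 860 and 610 in WT CD80hi and 570 and 650 in WT CD80lo mTEC. The arrays overlapped in both genotypes and neither change passed (0.77 ± 0.41 and 0.25 ± 0.41). A second H2-DMa probe set also did not pass (0.76 ± 0.43 in AIRE-ko and -0.11 ± 0.43 in WT).

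The beta chain genes carried the H2-DM calls. H2-DMb1 gave 2071 and 2102 in AIRE-ko CD80hi and 659 and 780 in AIRE-ko CD80lo mTEC, a rise of 1.53 ± 0.44 (adjusted p = 0.0337). In WT it gave 1320 and 1239 in CD80hi and 815 and 782 in CD80lo mTEC, a difference of 0.68 ± 0.44 (adjusted p = 0.415). Neither pair of groups overlapped. The H2-DMb1 call was lost without any single one of the 4 knockout arrays (adjusted p = 0.084 to 0.165).

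H2-DMb2 gave 435 and 386 in AIRE-ko CD80hi and 82.1 and 91.1 in AIRE-ko CD80lo mTEC, a rise of 2.18 ± 0.50 (adjusted p = 0.00937). In WT it gave 238 and 230 in CD80hi and 111 and 82.2 in CD80lo mTEC, a difference of 1.25 ± 0.50 (adjusted p = 0.131). Every CD80hi array was above every CD80lo array. The call in AIRE-ko mTEC was lost without array 1 of the CD80hi group (adjusted p = 0.0554) or of the CD80lo group (adjusted p = 0.0606). The probe set annotated to both H2-DMb genes differed by 1.36 ± 0.46 in AIRE-ko (adjusted p = 0.0726) and 0.55 ± 0.46 in WT mTEC (adjusted p = 0.578).

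H2-Oa and H2-Ob encode the chains of H2-DO, the modulator of H2-DM. H2-Oa gave 2244 and 1393 in AIRE-ko CD80hi and 242 and 204 in AIRE-ko CD80lo mTEC, a rise of 2.97 ± 0.56 (7.81-fold, adjusted p = 0.00253). In WT it gave 1530 and 1055 in CD80hi and 289 and 236 in CD80lo mTEC, a rise of 2.26 ± 0.56 (4.79-fold, adjusted p = 0.0141). H2-Oa was thus called in both genotypes. The WT call was lost without CD80hi array 1 (1.99, adjusted p = 0.134), CD80lo array 1 (2.40, adjusted p = 0.061) or CD80lo array 2 (2.12, adjusted p = 0.108).

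H2-Ob gave 406 and 219 in AIRE-ko CD80hi and 15.5 and 31.4 in AIRE-ko CD80lo mTEC, a rise of 3.48 ± 0.50 (11.2-fold, adjusted p = 0.000363). In WT it gave 101 and 94.1 in CD80hi and 30.0 and 50.7 in CD80lo mTEC, a difference of 1.22 ± 0.50 (adjusted p = 0.144). No arrays overlapped in either genotype. The knockout calls of H2-Oa and H2-Ob held without any single array.

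Ciita, the transactivator, gave 303 and 116 in AIRE-ko CD80hi and 85.7 and 52.8 in AIRE-ko CD80lo mTEC, a difference of 1.42 ± 0.51 (adjusted p = 0.0882). In WT it gave 95.9 and 85.7 in CD80hi and 91.7 and 87.3 in CD80lo mTEC, a difference of 0.02 ± 0.51 (adjusted p = 0.99). The knockout groups did not overlap and the wild-type groups did.

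Array 1 of each knockout group had the higher signal of its pair for 7 members in AIRE-ko CD80lo and 9 in AIRE-ko CD80hi mTEC. The dendritic cell, macrophage, B cell, thymocyte, thymic epithelial and medullary epithelial marker sums were likewise higher on array 1 of both groups. The leukocyte sum was higher on array 1 in AIRE-ko CD80lo mTEC only. The cortical epithelial, fibroblast and endothelial sums were lower on array 1 of both knockout groups. Without these 2 arrays, a choice made after seeing the data, 1 member and 5.71% of all tested probe sets passed. The member was H2-Ob (2.63, adjusted p = 0.0454), while H2-Oa was at 2.74 (adjusted p = 0.0893), H2-DMb2 at 2.03 (adjusted p = 0.171) and H2-DMb1 at 1.42 (adjusted p = 0.297). In all, 8 of 10 members had both CD80hi arrays above both CD80lo arrays in AIRE-ko mTEC, as had 21.1% of tested probe sets, and 8 of 10 in WT mTEC, as had 30.4%.

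**Figure D2:**
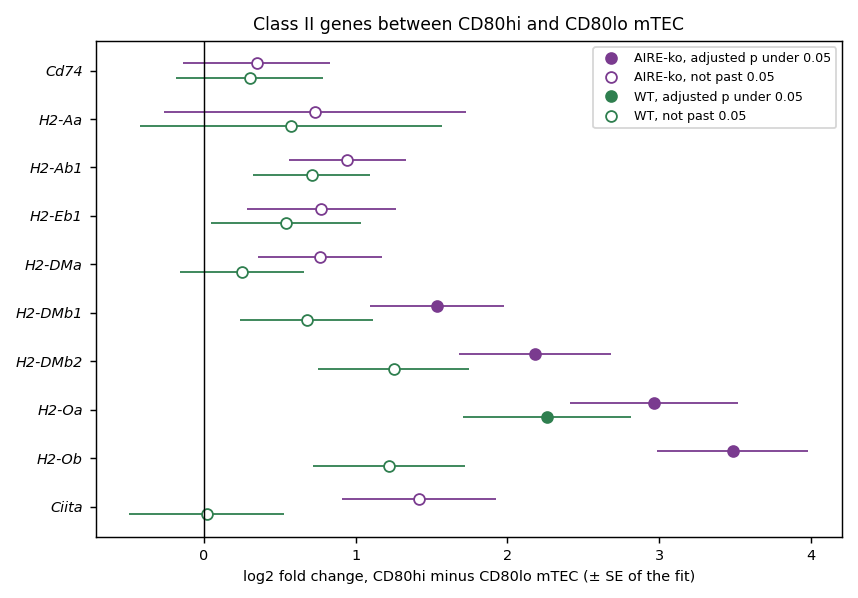
Log2 fold change of CD80hi over CD80lo mTEC with the standard error of the fit, in AIRE-ko (purple, upper of each pair) and WT mTEC (green). Filled circles mark an adjusted p under 0.05: H2-DMb1, H2-DMb2, H2-Oa and H2-Ob in AIRE-ko and H2-Oa in WT mTEC.

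Of 29 other genes of the pathway, 23 were measured and 22 tested. In AIRE-ko mTEC 6 rose with CD80 and 1 fell. They included Ctsh, a cathepsin (3.43 ± 0.43), H2-Eb2, a further class II beta chain gene (3.13 ± 0.47), Ctss, the cathepsin that trims the invariant chain in most presenting cells (2.52 ± 0.40), and Cd83, which stabilises surface class II (2.08 ± 0.35). In WT mTEC 5 rose and 1 fell, among them Ctsh (2.83 ± 0.43), Ctsz, another cathepsin (2.24 ± 0.36), and Ctse, an aspartic endosomal protease (2.21 ± 0.47). The gene that fell was Ctsl, the cathepsin that trims the invariant chain in cTEC, at -2.44 ± 0.49 in WT mTEC. In AIRE-ko mTEC it was at -2.67 ± 0.49 (named after its values were seen). The medians over the tested pathway genes were 0.19 and 0.22 in AIRE-ko and WT mTEC.

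Marker lists of other cell types differed between the fractions in either direction. The 7 leukocyte markers summed to 3507 and 3763 in AIRE-ko CD80hi and 1535 and 999 in AIRE-ko CD80lo mTEC, and to 3787 and 4254 in WT CD80hi and 1318 and 1188 in WT CD80lo mTEC. Laptm5 made up most of these sums (2528 and 3103 in AIRE-ko CD80hi mTEC). Laptm5 and Cd52 had both CD80hi arrays above both CD80lo arrays in each genotype. Cd52 gave 613 and 324 in AIRE-ko CD80hi and 79.7 and 26.0 in AIRE-ko CD80lo mTEC. In WT it gave 707 and 460 in CD80hi and 84.6 and 65.4 in CD80lo mTEC. Coro1a and Cd53 were higher without overlap in WT and overlapped in AIRE-ko mTEC, and Itgb2 overlapped in both. The defining leukocyte marker Ptprc was 33.7 and 70.0 in AIRE-ko CD80hi and 24.3 and 25.3 in AIRE-ko CD80lo mTEC, and overlapped in WT at 28.4 and 75.4 in CD80hi and 25.5 and 74.6 in CD80lo mTEC. Vav1, of the same list, was lower on the CD80hi arrays of both genotypes, at 26.0 and 40.6 in WT CD80hi and 114.9 and 92.8 in WT CD80lo mTEC. The dendritic cell list, 10 of 13 genes measured, summed to 8960 and 4581 in AIRE-ko CD80hi and 2365 and 1342 in AIRE-ko CD80lo mTEC, and to 5405 and 5623 in WT CD80hi and 2635 and 1894 in WT CD80lo mTEC. Its defining marker Itgax was 37.3 and 47.7 in AIRE-ko CD80hi and 41.7 and 23.6 in AIRE-ko CD80lo mTEC, and 46.0 and 61.8 in WT CD80hi and 53.8 and 33.7 in WT CD80lo mTEC, overlapping in both genotypes. Most of the list differed from Itgax: Irf8, Batf3, Zbtb46, Ccr7, Fscn1, Ccl17 and Ccl22 had both CD80hi arrays above both CD80lo arrays in each genotype. Flt3 and Xcr1 did so in WT and overlapped in AIRE-ko mTEC. The B cell list, 9 of 10 genes measured, summed to 1798 and 1104 in AIRE-ko CD80hi and 7319 and 482 in AIRE-ko CD80lo mTEC, with Ighm at 7096 on the first CD80lo array. In WT it summed to 846 and 842 in CD80hi and 1945 and 2707 in CD80lo mTEC. Its defining marker Cd79a was between 7.7 and 25.2 on the 8 CD80-sorted arrays. Blk, Cd79b, Fcer2a and Cr2 had both CD80hi arrays above both CD80lo arrays in each genotype. Blk gave 681 and 536 in AIRE-ko CD80hi and 41.8 and 15.8 in AIRE-ko CD80lo mTEC. In WT it gave 213 and 193 in CD80hi and 14.9 and 31.3 in CD80lo mTEC. Ms4a1 and Pax5 were higher without overlap in AIRE-ko only, and Cd22 in WT only. Ighm and Cd79a overlapped in AIRE-ko and were lower in CD80hi mTEC in WT. The endothelial list (8 genes) summed to 253 and 263 in AIRE-ko CD80hi and 258 and 857 in AIRE-ko CD80lo mTEC, and to 219 and 225 in WT CD80hi and 1078 and 582 in WT CD80lo mTEC. The fibroblast list (7 of 8 genes) summed to 931 and 1044 in AIRE-ko CD80hi and 1376 and 1927 in AIRE-ko CD80lo mTEC, and to 809 and 702 in WT CD80hi and 1468 and 1215 in WT CD80lo mTEC. Thymocyte sums overlapped between the fractions in both genotypes, and macrophage sums in AIRE-ko mTEC, while in WT the macrophage list (13 genes) was at 1789 and 1463 in CD80hi and 614 and 703 in CD80lo mTEC. In AIRE-ko mTEC its gene Cd14 was lower in CD80hi, at 155 and 172 against 891 and 435 in CD80lo. Lyz2 (535 and 361 against 162 and 184), Mrc1 and Cd68 were higher in AIRE-ko CD80hi without overlap. The rest of the macrophage list, with Adgre1, overlapped in AIRE-ko mTEC. The part of these cell types in the class II values was not tested.

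Aire-knockout mTEC were set against wild-type mTEC of the same CD80 fraction to ask whether class II genes depend on Aire. In CD80hi mTEC none of the 10 members passed limma's test and 1 had an unadjusted p under 0.05, where 3.05% of all tested probe sets were called. In CD80lo mTEC none passed and none had an unadjusted p under 0.05, where 0.322% were called. These comparisons share arrays with those between CD80 fractions.

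In CD80hi mTEC all 10 fold changes were positive, with a median of 0.45 beside -0.051 over all probe sets. H2-Ob had the smallest p: its 406 and 219 in AIRE-ko against 101 and 94.1 in WT CD80hi mTEC gave 1.57 ± 0.50 (adjusted p = 0.142). Ciita differed by 1.02 ± 0.51 (adjusted p = 0.492), H2-DMb2 by 0.80 ± 0.50 (adjusted p = 0.664) and H2-DMb1 by 0.70 ± 0.44 (adjusted p = 0.665). These 4 genes and H2-Aa (0.12 ± 0.996) had both knockout arrays above both wild-type arrays, 5 of 10 members, as had 15.8% of tested probe sets. The other 5 overlapped and differed by 0.09 (H2-Ab1) to 0.47 (H2-Oa).

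In CD80lo mTEC 9 of 10 fold changes were negative and all were small beside their errors, from -0.70 ± 0.50 for H2-Ob to 0.27 ± 0.48 for Cd74. The median was -0.14, beside -0.053 over all probe sets. H2-Ob gave 15.5 and 31.4 in AIRE-ko and 30.0 and 50.7 in WT CD80lo mTEC, which overlapped.

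The difference between the genotypes in the step between CD80 fractions was tested directly as an interaction, and no member passed, where 1.30% of all tested probe sets were called. One member, H2-Ob, had an unadjusted p under 0.05 (2.26 ± 0.71, adjusted p = 0.199). The next in size was Ciita (1.40 ± 0.72, adjusted p = 0.709), and the classical chains and Cd74 lay between 0.05 and 0.24. The larger number of calls in AIRE-ko than in WT mTEC is therefore not shown to be a difference between the genotypes.

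The B cell kinase gene Blk, of the B cell list, was at 681 and 536 in AIRE-ko and 213 and 193 in WT CD80hi mTEC. In WT tDC, where H2-Ob gave 225 and 182, Blk gave 34.9 and 28.1. Fcer2a was lower in AIRE-ko CD80hi mTEC, at 191 and 138 against 207 and 206 in WT, as was Cd22. The other measured genes of the list overlapped between the genotypes, with Cd79a at 21.1 and 8.4 in AIRE-ko and 9.6 and 10.6 in WT. The list summed to 1798 and 1104 in AIRE-ko and 846 and 842 in WT CD80hi mTEC. In the CD80lo fraction it summed to 7319 and 482 in AIRE-ko and 1945 and 2707 in WT mTEC. Its part in the H2-Ob values was not tested. Of the 22 other pathway genes, 1 passed in each fraction, the protease gene Ctse, which was lower in AIRE-ko by -4.91 ± 0.47 in CD80hi and -3.97 ± 0.47 in CD80lo mTEC. Its signals were 249 and 57.9 in AIRE-ko and 3936 and 3658 in WT CD80hi mTEC. No pathway gene passed in the interaction.

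The unfractionated groups were set against each other to ask how the thymic cells that present class II differ in these genes. These comparisons share arrays, so each is given by its own values. Arrays of one number also stood apart from those of the other in their highest signals, and the difference within arrays 1 and within arrays 2 is therefore given beside each call.

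WT mTEC and WT cTEC differed in 1 member, H2-Ob, which was higher in mTEC, where 15.4% of all tested probe sets were called. H2-Ob gave 104 and 81.7 in WT mTEC and 13.3 and 25.0 in WT cTEC, a difference of 2.06 ± 0.50 (adjusted p = 0.0108), with 2.59 within arrays 1 and 1.54 within arrays 2. The call was lost without array 1 of cTEC (adjusted p = 0.109) or of mTEC (adjusted p = 0.0855). H2-Oa, the partner chain, gave 907 and 1009 in WT mTEC and 286 and 363 in WT cTEC, which did not overlap, and 1.56 ± 0.56 did not pass (adjusted p = 0.0799). With the array number of the unfractionated groups as a block, a choice made after seeing the data, it passed (adjusted p = 0.038).

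The classical chains did not pass between these epithelial groups. H2-Ab1 gave 2034 and 2632 in WT mTEC and 1669 and 1595 in WT cTEC (0.50 ± 0.39). H2-Aa gave 1122 and 5358 in WT mTEC and 1888 and 4246 in WT cTEC, and H2-Eb1 2002 and 4299 in WT mTEC and 1568 and 2238 in WT cTEC. Both ranges overlapped, and array 2 was the higher in each group. Cd74 was likewise at 2023 and 4718 in WT mTEC and 1769 and 3692 in WT cTEC.

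Of the other 22 pathway genes, 6 were higher in mTEC, 2 were lower and 14 did not pass. Ctsh differed by 4.31 ± 0.43, Ctsz by 3.34 ± 0.36 and Ctss by 2.55 ± 0.40, while Cd83 was lower in mTEC (-2.67 ± 0.35). Ctss gave 1812 and 1818 in WT mTEC and 189 and 497 in WT cTEC. Ctsl gave 1617 and 798 in WT mTEC and 1249 and 2960 in WT cTEC, which overlapped. The thymocyte markers on the cTEC arrays, 12 of 12 above the filter level on both, stand beside these values, and their part was not tested.

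WT mTEC and WT tDC differed in 1 member, H2-DMa, which was lower in mTEC, where 24.3% of all tested probe sets were called. H2-DMa gave 368 and 582 in WT mTEC and 1785 and 1725 in WT tDC, a difference of -1.91 ± 0.41 (adjusted p = 0.00303), with -2.26 within arrays 1 and -1.56 within arrays 2. Its second probe set was called too (-1.72 ± 0.43, adjusted p = 0.00851). The call held without any single array of the 4.

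H2-Oa and H2-Ob pointed in opposite directions here, and neither passed. H2-Oa gave 907 and 1009 in WT mTEC and 551 and 315 in WT tDC (1.19 ± 0.56, adjusted p = 0.149). H2-Ob gave 104 and 81.7 in WT mTEC and 225 and 182 in WT tDC (-1.09 ± 0.50, adjusted p = 0.14). In neither gene did the arrays overlap. Of the other pathway genes 1 was higher and 6 were lower in mTEC, with Ctsl at 3.67 ± 0.49, Cd83 at -2.91 ± 0.35, Ifi30, the lysosomal thiol reductase, at -1.94 ± 0.36 and Irf8, a myeloid transcription factor, at -2.07 ± 0.39.

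WT cTEC were lower than WT tDC in 3 members, H2-DMa, H2-DMb1 and H2-Ob, and 7 did not pass, where 17.7% of all tested probe sets were called. H2-Ob gave 13.3 and 25.0 in WT cTEC and 225 and 182 in WT tDC (-3.15 ± 0.50, 8.90-fold lower, adjusted p = 0.000409). This call held without any single array, with -3.66 within arrays 1 and -2.65 within arrays 2.

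H2-DMa gave 596 and 797 in WT cTEC and 1785 and 1725 in WT tDC (-1.34 ± 0.41, adjusted p = 0.0346, with -1.57 and -1.11 within arrays 1 and 2). H2-DMb1 gave 1007 and 312 in WT cTEC and 2250 and 1342 in WT tDC (-1.62 ± 0.44, adjusted p = 0.0189, with -1.16 and -2.09 within arrays 1 and 2). Both had the same direction within each number. The H2-DMa call was lost without any one of the 4 arrays (adjusted p = 0.0644 to 0.204). The H2-DMb1 call was lost without cTEC array 2 (-0.78, adjusted p = 0.24) or tDC array 1 (-1.25, adjusted p = 0.17). Ciita gave 171 and 71.1 in WT cTEC and 221 and 127 in WT tDC, which overlapped.

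Of the other pathway genes 1 was higher in cTEC, Ctsl (4.42 ± 0.49), and 9 were lower. Ctsl gave 1249 and 2960 in WT cTEC and 112 and 64.7 in WT tDC. The lower genes included Ctsh (-4.53 ± 0.43), Ctsz (-4.22 ± 0.36) and Ifi30 (-4.08 ± 0.36).

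**Figure D3:**
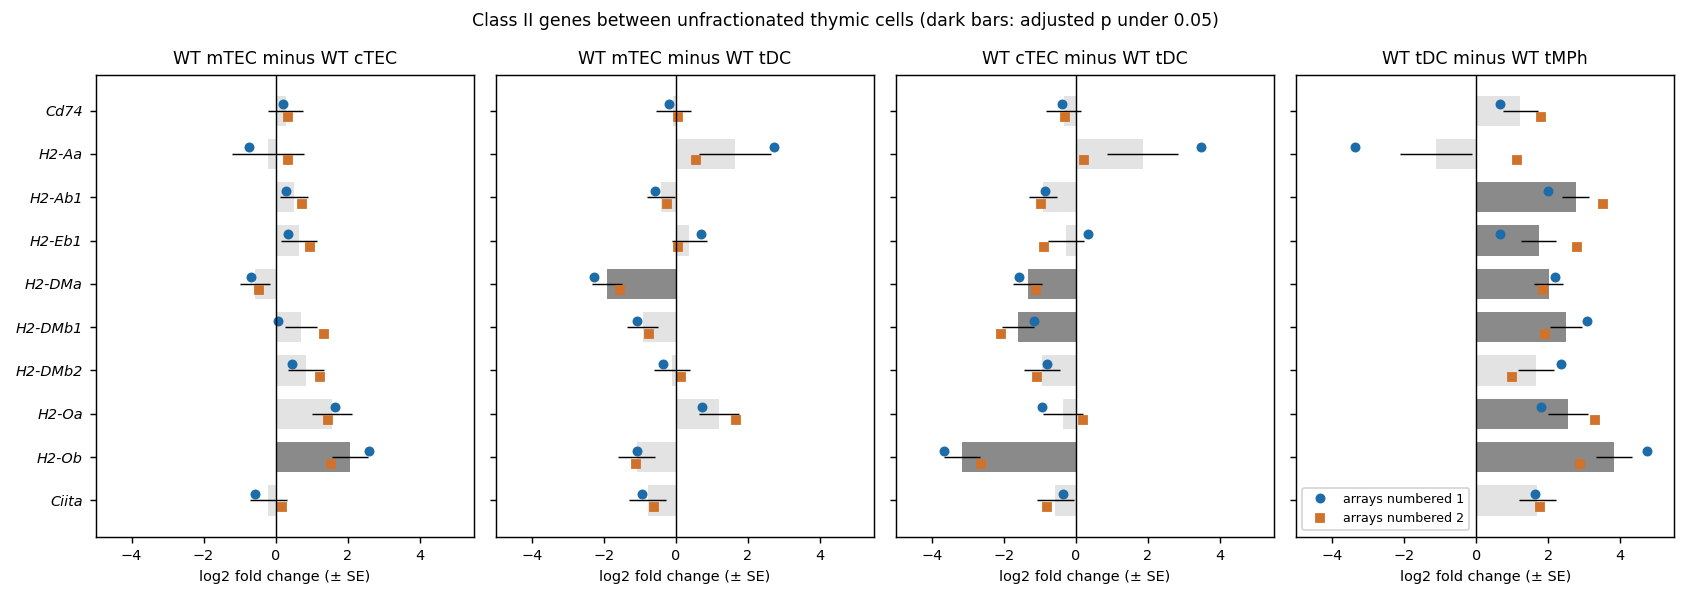
Log2 fold change between unfractionated groups, in 4 comparisons. Bars are the fit with its standard error, dark where the adjusted p was under 0.05, circles the difference between the arrays numbered 1 and squares that between the arrays numbered 2. H2-Aa shows the widest gap between circle and square wherever tDC enter.

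WT mTEC were higher than WT tMPh in 6 members, H2-Ab1, H2-Eb1, H2-DMb1, H2-DMb2, H2-Oa and H2-Ob, and 4 did not pass, where 22.0% of all tested probe sets were called. WT tDC were higher than WT tMPh in 6 members, H2-Ab1, H2-Eb1, H2-DMa, H2-DMb1, H2-Oa and H2-Ob, and 4 did not pass, where 9.25% were called. With only the tDC and tMPh arrays in the fit, H2-Ob passed and the other 5 calls were lost (adjusted p = 0.0578 to 0.304), where 1.93% of all tested probe sets were called. The medians over the members were 1.56 for mTEC over tMPh and 1.87 for tDC over tMPh, beside 0.01 and -0.084 over all probe sets.

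H2-Ab1 gave 2034 and 2632 in WT mTEC and 3056 and 3147 in WT tDC, against 759 and 272 in WT tMPh. This was 2.33 ± 0.39 for mTEC (adjusted p = 0.000489, with 1.42 and 3.25 within arrays 1 and 2) and 2.76 ± 0.39 for tDC (adjusted p = 0.000341, with 2.003 and 3.508 within arrays 1 and 2). H2-Eb1 gave 2002 and 4299 in WT mTEC and 1235 and 4157 in WT tDC, against 784 and 589 in WT tMPh. It was called for both (2.10 ± 0.49 and 1.73 ± 0.49), with 1.35 and 2.86 within arrays 1 and 2 for mTEC and 0.65 and 2.81 for tDC. The mTEC call was lost without mTEC array 2 (1.55, adjusted p = 0.0914). The tDC call was lost without tDC array 2 (0.86, adjusted p = 0.352), tMPh array 1 (adjusted p = 0.0699) or tMPh array 2 (adjusted p = 0.166).

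H2-Oa gave 155 and 27.6 in WT tMPh, and the difference was 3.74 ± 0.56 for mTEC (adjusted p = 0.0002, with 2.52 and 4.97 within arrays 1 and 2) and 2.55 ± 0.56 for tDC (adjusted p = 0.0085, with 1.80 and 3.30). H2-Ob gave 3.8 and 20.4 in WT tMPh, near or under the filter level, and the difference was 2.72 ± 0.50 for mTEC (adjusted p = 0.00109, with 3.66 and 1.78) and 3.81 ± 0.50 for tDC (adjusted p = 0.0002, with 4.74 and 2.89). Both chains of H2-DO were thus called against tMPh in both comparisons. The tDC call of H2-Oa was lost without tDC array 1 (2.15, adjusted p = 0.0855) or tMPh array 2 (1.40, adjusted p = 0.0596), while the other 3 held without any single array.

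The H2-DM genes differed by comparison. H2-DMb1 gave 1053 and 792 in WT mTEC and 2250 and 1342 in WT tDC, against 263 and 356 in WT tMPh, and was called in both (1.56 ± 0.44 with 1.98 and 1.14 within arrays 1 and 2, and 2.48 ± 0.44 with 3.07 and 1.90). H2-DMa, at 392 and 475 in WT tMPh, was called for tDC (2.01 ± 0.41, adjusted p = 0.00549, with 2.17 and 1.85) and differed by 0.10 ± 0.41 for mTEC. H2-DMb2, at 26.3 and 27.3 in WT tMPh, was called for mTEC (1.55 ± 0.50, adjusted p = 0.0378, with 1.97 and 1.12) and fell just short for tDC (1.66 ± 0.50, adjusted p = 0.0521). The mTEC call of H2-DMb1 was lost without tMPh array 1 (adjusted p = 0.102) or mTEC array 1 (adjusted p = 0.131), and that of H2-DMb2 without either tMPh array or mTEC array 1 (adjusted p = 0.101 to 0.261).

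Ciita gave 113 and 81.0 in WT mTEC and 221 and 127 in WT tDC, against 68.3 and 33.8 in WT tMPh, with no overlap and no call (0.92 ± 0.51, adjusted p = 0.245, and 1.70 ± 0.51, adjusted p = 0.0521). With array number as a block in the unfractionated groups, Ciita and H2-DMb2 passed for tDC (adjusted p = 0.00905 and 0.00519). Cd74 gave 1465 and 1301 in WT tMPh and was below every array of WT mTEC and WT tDC, also without a call (1.16 ± 0.48, adjusted p = 0.111, and 1.23 ± 0.48, adjusted p = 0.157). The epithelial markers on array 1 of WT tMPh stood beside the higher of its 2 signals for H2-Ab1 and H2-Oa and the lower for H2-Ob, and their part was not tested. Of the other pathway genes 2 were higher and 5 lower in mTEC than in tMPh, led by Lgmn, an endosomal protease (-4.71 ± 0.39), Ctsb (-2.63 ± 0.34), Cd83 (-2.26 ± 0.35) and Ifngr1, an interferon gamma receptor chain (-1.73 ± 0.31). None was higher and 4 were lower in tDC than in tMPh, the proteases Ctsl (-3.94 ± 0.49), Lgmn (-3.12 ± 0.39), Ctsb (-1.95 ± 0.34) and Ctsd (-2.21 ± 0.56).

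H2-Aa had the widest ratio between 2 arrays of a group. In WT tDC it gave 166 and 3639, a ratio of array 2 to array 1 of 21.9, in a group where H2-Ab1, which encodes the partner chain, gave 3056 and 3147 (a ratio of 1.03). The ratio was 4.78 in WT mTEC, 2.25 in WT cTEC and 0.948 in WT tMPh. Other members differed more in those last groups: in WT cTEC array 1 was 3.39 times array 2 for H2-DMb2 and 3.23 times for H2-DMb1, and in WT tMPh array 1 was 5.60 times array 2 for H2-Oa while array 2 was 5.37 times array 1 for H2-Ob. In the 4 CD80-sorted groups the H2-Aa ratio was between 0.768 and 0.986. Cd74 had ratios of 2.33, 2.09 and 1.96 in WT mTEC, WT cTEC and WT tDC. Between 0 and 11 probe sets exceeded 3000 on the unfractionated arrays numbered 1, against 37 to 58 on those numbered 2 and 47 to 84 on the CD80-sorted arrays.

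**Figure D4:**
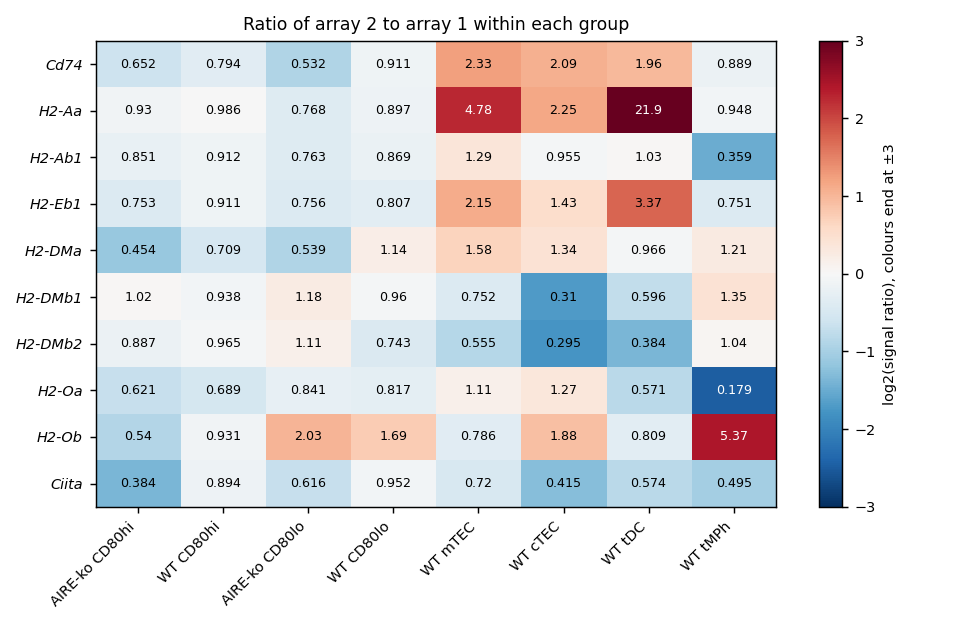
Ratio of the signal on array 2 to that on array 1 of the same group, printed in each cell and coloured by its log2, with red for higher on array 2. The largest is 21.9 for H2-Aa in WT tDC, and the 4 CD80-sorted groups lie between 0.384 and 2.03.

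The sign of the H2-Aa difference against tDC depended on that array. WT mTEC minus WT tDC was 1.64 ± 0.996, with 2.72 within arrays 1 and 0.56 within arrays 2, and -0.57 without tDC array 1. WT tDC minus WT tMPh was -1.11 ± 0.996, with -3.36 and 1.14 within arrays 1 and 2, and 1.10 without tDC array 1. H2-Aa gave 1745 and 1655 in WT tMPh, and WT mTEC minus WT tMPh was 0.53 ± 0.996 (adjusted p = 0.795). None of the 3 passed. Without tDC array 2 the first was called higher in mTEC (3.85, adjusted p = 0.00137) and the second lower in tDC (-3.32, adjusted p = 0.00986).

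WT CD80hi mTEC were also set against WT tDC, as both are presenting cells of the medulla, and 2 members were higher, 1 lower and 7 not called, where 27.8% of all tested probe sets were called. CD80-sorted and unfractionated arrays are compared here, so the cell type and the set of arrays cannot be told apart. Nothing in the labels ties the numbers of the 2 sets to each other. The differences within arrays 1 and within arrays 2 given for H2-Aa, H2-Oa and H2-DMa in this comparison are therefore arbitrary pairs. H2-Aa was higher by 3.33 ± 0.996 (adjusted p = 0.0223), with 5.55 within arrays 1 and 1.11 within arrays 2, and by 1.12 without tDC array 1 (adjusted p = 0.309). The call was also lost without either WT CD80hi array (adjusted p = 0.0996 and 0.0918).

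H2-Oa gave 1530 and 1055 in WT CD80hi mTEC and 551 and 315 in WT tDC (1.60 ± 0.56, adjusted p = 0.0454, with 1.47 and 1.73 within arrays 1 and 2). H2-DMa gave 860 and 610 in WT CD80hi mTEC and 1785 and 1725 in WT tDC (-1.27 ± 0.41, adjusted p = 0.032, with -1.05 and -1.49). In both genes the arrays did not overlap, and both calls were lost without any one of the 4 arrays (adjusted p = 0.0543 to 0.24 for H2-Oa and 0.0625 to 0.206 for H2-DMa). H2-Ob, at 101 and 94.1 in WT CD80hi mTEC and 225 and 182 in WT tDC, differed by -1.01 ± 0.50 (adjusted p = 0.156). Of the other pathway genes 3 were higher and 8 lower in CD80hi mTEC, among them Ctsl (2.84 ± 0.49), Cd83 (-2.33 ± 0.35), Spi1, a myeloid transcription factor (-2.91 ± 0.70), and Nfya, a subunit of the factor that binds the Y box (-1.38 ± 0.34).

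Over the 8 group means the members did not all follow 1 pattern. Against the mean log2 value of Cd74, H2-Aa, H2-Ab1 and H2-Eb1, the Pearson r was 0.90 for H2-DMb2, 0.78 for H2-Oa, 0.71 for H2-DMb1, 0.57 for H2-Ob, 0.47 for Ciita and 0.23 for H2-DMa, whose highest mean was in WT tDC. H2-DMa was at 1755 ± 42.4 in WT tDC (SD, n = 2) and its next group, AIRE-ko CD80hi mTEC, at 1050 ± 557, did not overlap with it, while all further neighbours in its order overlapped. For Ciita, AIRE-ko CD80lo and WT CD80lo mTEC were the only neighbours in the order that did not overlap. Of 6908 other genes, those most like the mean of the 4 genes were H2-D4 (r = 0.984), Fam3a (r = 0.97), Hspa2 (r = 0.969), Akap2 (r = 0.967) and Icam1, an adhesion molecule (r = 0.958). Fam3a (1.5 to 27.4) and Hspa2 (1.2 to 26.1) lay under the filter level on most arrays. H2-D4 was higher on array 1 than array 2 in WT mTEC (93.5 and 35), WT cTEC and WT tDC. Cd74, H2-Aa and H2-Eb1 were higher on array 2 in those groups. Icam1 gave 638 and 732 in AIRE-ko CD80hi mTEC and 180 and 100.1 in WT tMPh. These coefficients rest on 8 points that share arrays and scaling and are descriptions.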

How the data were processed

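Total RNA of sorted mouse thymic cells was measured on 16 arrays, grouped by their titles into 8 groups of 2. The deposited table held a linear intensity for each of 12488 probe sets on each array, and the sources used here do not name the software or background correction. Every deposited column had a 2%-trimmed mean of 100.06 or 100.07, so no further scaling was applied. Replicate pairs were not identical (Pearson r of log2 values 0.925 to 0.972). Control probe sets (66) and those above the 40th percentile of all values, 17.3, on fewer than 2 arrays (3103) were dropped, which left 9319. The added constant, 4.8, was the 20th percentile. Platform symbols were current or renamed through the GRCm38.p6 annotation for 10817 probe sets and kept as given for 16, and each gene was read from its brightest probe set.

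All comparisons were contrasts of 1 limma model (lmFit, trended eBayes, 8 residual and 5.97 prior degrees of freedom). Their 2-sided p-values were Benjamini-Hochberg adjusted across tested probe sets. R 4.3.3, limma 3.58.1, version 1.17.8 of the data.table package, Python 3.11.15, pandas 2.3.3, numpy 2.4.6 and matplotlib 3.10.9 were used. The model was tested on simulated data. Having 2 arrays per group limits the precision.

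Members, pathway and marker lists and tests were chosen with earlier results of these data known. Named are all members, up to 4 called pathway genes per comparison by smallest p, and the 5 genes most like the classical chains and Cd74. Alternatives varied the normalisation, constant, filter, trend, arrays in the fit, replicate block and probe set summary, and left out each array in turn. Blocks for unfractionated or knockout arrays, fits of each array set alone and the fit without both knockout arrays 1 were added after seeing the data.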

Additional observations from a re-analysis of the deposited data

How the results depend on the processing

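The number of members called was recomputed under each alternative, and below it is set against 1 for WT mTEC minus WT cTEC, 1 for WT mTEC minus WT tDC, 3 for WT cTEC minus WT tDC, 3 for WT CD80hi mTEC minus WT tDC, 6 for tDC minus tMPh, 6 for mTEC minus tMPh, and 4 in AIRE-ko and 1 in WT for CD80hi minus CD80lo mTEC. Quantile normalisation gave 2 for mTEC minus cTEC. A constant of 17.3 gave 1 for AIRE-ko minus WT CD80hi mTEC (H2-Ob, 1.46, adjusted p = 0.0343), against 0. Labels do not say what a replicate number marks. Same-numbered arrays deviated together in all 6 pairs of unfractionated groups (r = 0.28 to 0.526), a hint from the data, while r was 0.027 to 0.518 over 6 pairs of CD80-sorted groups. The replicate block gave 2 for WT CD80hi minus CD80lo (with H2-DMb2, adjusted p = 0.0455), 5 for AIRE-ko CD80hi minus CD80lo (with Ciita, adjusted p = 0.00782), 2 for mTEC minus cTEC (with H2-Oa, adjusted p = 0.0265), 8 for tDC minus tMPh (with H2-DMb2 and Ciita, adjusted p = 0.0118 and 0.00282) and 5 for CD80hi mTEC minus tDC (with H2-Eb1 and H2-DMb2, adjusted p = 0.0484 and 0.0257), and ended no call. The block for unfractionated arrays gave 2 for mTEC minus cTEC and 5 for CD80hi mTEC minus tDC. CD80-sorted arrays alone gave 2 for WT CD80hi minus CD80lo. With only the groups compared there were 7 for WT CD80hi minus CD80lo, 2 for mTEC minus cTEC, 1 for cTEC minus tDC and 1 for tDC minus tMPh. Without both knockout arrays 1 there was 1 for AIRE-ko CD80hi minus CD80lo. Leaving out 1 array at a time gave 0 to 1 for WT CD80hi minus CD80lo and for mTEC minus cTEC, 2 to 4 for AIRE-ko CD80hi minus CD80lo, 1 to 2 for mTEC minus tDC, 1 to 3 for cTEC minus tDC, 0 to 2 for CD80hi mTEC minus tDC, 4 to 5 for mTEC minus tMPh and 4 to 7 for tDC minus tMPh, with fewer samples behind each test. Of 1710 values of single members, 64 lost a call, 47 gained one, 8 reversed and 1591 stayed on the same side of the threshold, of which 44 changed sign without a call and within 1 standard error of 0. Without one array, H2-Aa ranged from -0.568 (without tDC array 1) to 3.848 for mTEC minus tDC, from -0.361 (without tDC array 1) to 4.055 for cTEC minus tDC and from -3.319 to 1.097 (without tDC array 1) for tDC minus tMPh. Likewise Ciita ranged from -1.183 to 0.032 (without cTEC array 2) for cTEC minus tDC, H2-DMb1 from -0.141 (without cTEC array 2) to 1.536 for mTEC minus cTEC and H2-DMa from -0.142 (without AIRE-ko CD80hi array 1, alone or with the other knockout array 1) to 0.991 for AIRE-ko minus WT CD80hi mTEC, and quantile normalisation put H2-Ab1 at -0.062 for CD80hi mTEC minus tDC. Over all probe sets the calls changed by over 1.5 times for WT CD80hi minus CD80lo with only these groups (2456, against 1186), for AIRE-ko CD80hi minus CD80lo with only these groups (629) or without both knockout arrays 1 (532, against 1193) and for tDC minus tMPh with only these groups (180) or unfractionated arrays alone (522, against 862), and for mTEC minus tMPh with only these groups (1360, against 2048). With all arrays or sets of arrays, counts that moved that far were 157 to 180 for AIRE-ko minus WT in CD80hi (against 284), 16 to 51 in CD80lo mTEC (against 30) and 44 to 216 for the interaction (against 121). Leaving out 1 array at a time gave 81 to 220, 8 to 25 and 34 to 99 for these, 626 to 681 for WT and 744 to 900 for AIRE-ko CD80hi minus CD80lo, 860 to 946 for mTEC minus cTEC (against 1434), 1040 to 1389 for cTEC minus tDC (against 1652), 1559 to 2173 for CD80hi mTEC minus tDC (against 2587), 566 to 786 for tDC minus tMPh, and within 1.5 times for mTEC minus tDC and mTEC minus tMPh. The cause of these changes was not tested. Signals under the filter level limit H2-Ob in WT tMPh, WT cTEC and AIRE-ko CD80lo mTEC.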
